A study of Mus musculus with 6 samples.

Results

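The cells described here are fibroblasts of the mouse collecting lymphatic vessel and its surroundings that carried transcripts of Fgf10, Hmcn1, Adam12 or Adamts12 and none of 3 genes that mark other fibroblasts. A cell was a member when it had at least 5 UMIs (unique molecular identifiers, each standing for 1 captured transcript) of Col1a2, Dcn and Pdgfra together, none of the leukocyte gene Ptprc or the endothelial gene Pecam1, at least 2 of Fgf10, Hmcn1, Adam12 and Adamts12 together, and none of Pi16, Cilp or Thbs4. Of 24488 barcodes kept, 12037 passed the first 3 conditions and were called fibroblasts, and 1006 of these (8.36%) met the whole rule. The other 11031 fibroblasts of the same libraries serve as the comparison. The study dissected the dermal collecting vessels that run from the inguinal to the axillary lymph node of C57BL/6 mice, dissociated them with enzymes and sequenced single cells from 6 libraries. Mice were young (6 weeks), middle-aged (12 months) or aged (18 months), with 1 library labelled female and 1 labelled male at each age. The labels name no transgene and no treatment besides anaesthesia and Evans Blue, a dye put into the inguinal node of every mouse to show the vessels. Fat and connective tissue were trimmed away before digestion, and red blood cells were lysed. The 18-month mice came from the National Institute on Aging, so supplier and age cannot be told apart, and neither the labels nor the files give the number of mice in a library.

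Fibroblasts make and remodel the connective tissue around vessels, and in skin they fall into layers and perivascular types that differ in the matrix they lay down. Fgf10 encodes a fibroblast growth factor that mesenchymal cells send to neighbouring epithelium through the receptor Fgfr2. Hmcn1 encodes hemicentin 1, a very large matrix protein of basement membrane junctions. Adam12 and Adamts12 encode metalloproteinases, the first anchored in the membrane and the second secreted. Postn encodes periostin, a matricellular protein that binds collagen and is abundant where connective tissue grows or repairs. Pi16, Cilp and Thbs4, whose presence removed a cell, mark adventitial and fascia-like fibroblasts.

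Between 9616652 and 28921825 UMIs were counted per library, and kept barcodes had medians of 2536 to 7508 UMIs. Members had median depths of 3510 UMIs in young female, 4010 in young male, 10026 in the library labelled middle-aged female, 2861 in the one labelled middle-aged male, 3712 in aged female and 4907 in aged male, and other fibroblasts had 3592, 3185.5, 10306, 3261, 5430 and 4795 in the same order. No member barcode occurred in more than 1 library, although 63 kept barcodes did. The sex labels of the 12-month pair did not match their transcripts. Xist, the RNA of the inactive X chromosome, was counted in members at 1829 CPM (the UMIs of a gene scaled to a common total of the summed cells) in young female, 937 in aged female and 1669 in the library labelled middle-aged male, and at 0 CPM in the other three. The 4 Y-linked genes counted together stood at 169 CPM in young male, 312 in aged male and 296 in the library labelled middle-aged female, and at 0.636 CPM or less elsewhere. The labels are used as given, with the word labelled before them. The aged female sum stood apart. Of its 280827 member UMIs, 69.7% came from 3 of 21 cells that held a UMI of the epithelial genes Epcam, Krt8, Krt18 or Krt19, and 1 cell alone held 125767. Such cells held at most 7.96% of member UMIs in any other library. Aged female values are therefore given with all 21 members and, for many genes that differ much, also with the 18 members that remain. Figures are drawn with no cell left out for epithelial UMIs.

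Members made up 22.9% of fibroblasts in young female (417 of 1819, exact 95% interval 21.0 to 24.9%), the largest share of the 6 libraries. The share was 6.63% in young male (303 of 4567, interval 5.93 to 7.40%), 3.68% in the library labelled middle-aged female (17 of 462, 2.16 to 5.83%) and 5.76% in the one labelled middle-aged male (179 of 3106, 4.97 to 6.64%). In the aged libraries it was 4.78% in female (21 of 439, 2.99 to 7.22%) and 4.20% in male (69 of 1644, 3.28 to 5.28%). The young female interval lay above all 5 others, while both aged intervals overlapped both middle-aged ones. A deeper cell meets a rule on UMIs more easily, so each cell was also thinned at random to 2000 UMIs, which left out 7402 shallower barcodes. Shares were then 18.0% in young female, 3.54% in young male, 0.887% and 3.60% in the libraries labelled middle-aged female and male, 2.997% in aged female and 1.52% in aged male. These intervals cover counting error only. With 2 libraries an age, an exact two-sided permutation test between ages cannot give a p below 0.333, so none was run.

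**Figure D1:**
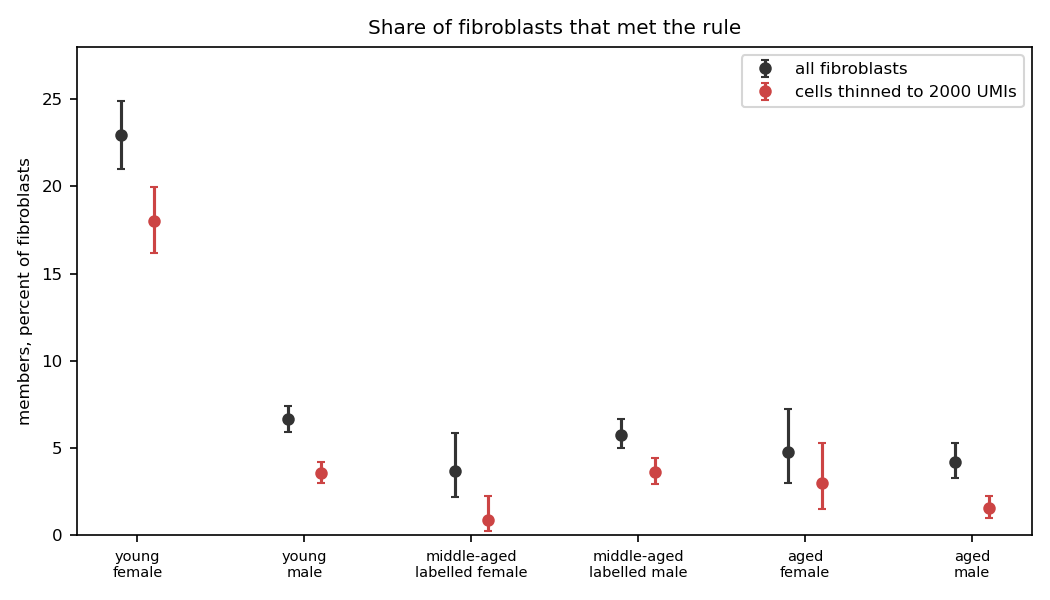
Members as a percent of all fibroblasts in each library, for all fibroblasts (black) and after thinning every cell to 2000 UMIs (red), with exact 95% binomial intervals. Young female stands apart at 22.9% and 18.0%, and the other libraries lie between 3.68% and 6.63% before thinning.

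The working name of these cells joins Postn, Fgf10 and Hmcn1, and the libraries did not bear it out alike. Hmcn1 was counted in members at 249 CPM in young female, 186 in the library labelled middle-aged male and 74.8 in aged female (188 without epithelial UMIs). In young male it stood at 0.788 CPM (1 UMI in 303 cells), in aged male at 2.86 and in the library labelled middle-aged female at 5.69. The 3 libraries with high Hmcn1 are the 3 in which Xist was counted. Fgf10 was seen in every library, at 263, 153, 28.4, 179, 24.9 and 88.6 CPM in members of young female, young male, labelled middle-aged female, labelled middle-aged male, aged female and aged male. In aged female members without epithelial UMIs Fgf10 stood at 70.5 CPM and Adamts12 at 435, against 146 CPM of Adamts12 with all members. Adamts12 carried the rule throughout. Between 74.9% and 94.2% of members had an Adamts12 UMI, against 10.3% to 23.9% of other fibroblasts and at most 0.319% of leukocytes, whose median depth was 2027 to 3392 UMIs. Because the rule chose cells by these counts, the differences are a description and carry no test.

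Postn was not in the rule, and its levels varied widely between libraries. It was counted in members at 3421 CPM in young female, 504 in young male, 17.1 in the library labelled middle-aged female, 932 in the one labelled middle-aged male, 531 in aged female and 117 in aged male. Without cells holding epithelial UMIs, aged female members had 1505 CPM. Other fibroblasts of the same libraries had 1340, 791, 20.4, 466, 378 and 18.8 CPM. Postn was thus higher in members in 4 libraries and lower in young male and in the library labelled middle-aged female, with a mean log2 ratio of 0.72 ± 1.09 (SD, n = 6 libraries). Within young female, members with an Hmcn1 UMI (186 cells) had 4248 CPM of Postn and members without (231 cells) had 2754. In the library labelled middle-aged male the same split gave 1584 and 626 CPM (54 and 125 cells), and in aged female 309 and 1532 CPM (10 and 11 cells). The 10 aged female cells held 81.9% of that library's member UMIs, and without the cells with epithelial UMIs the split gave 1702 and 1330 CPM (8 and 10 cells). Because the 3 genes of the working name did not go together in every library, the cells are called members, after the rule.

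**Figure D2:**
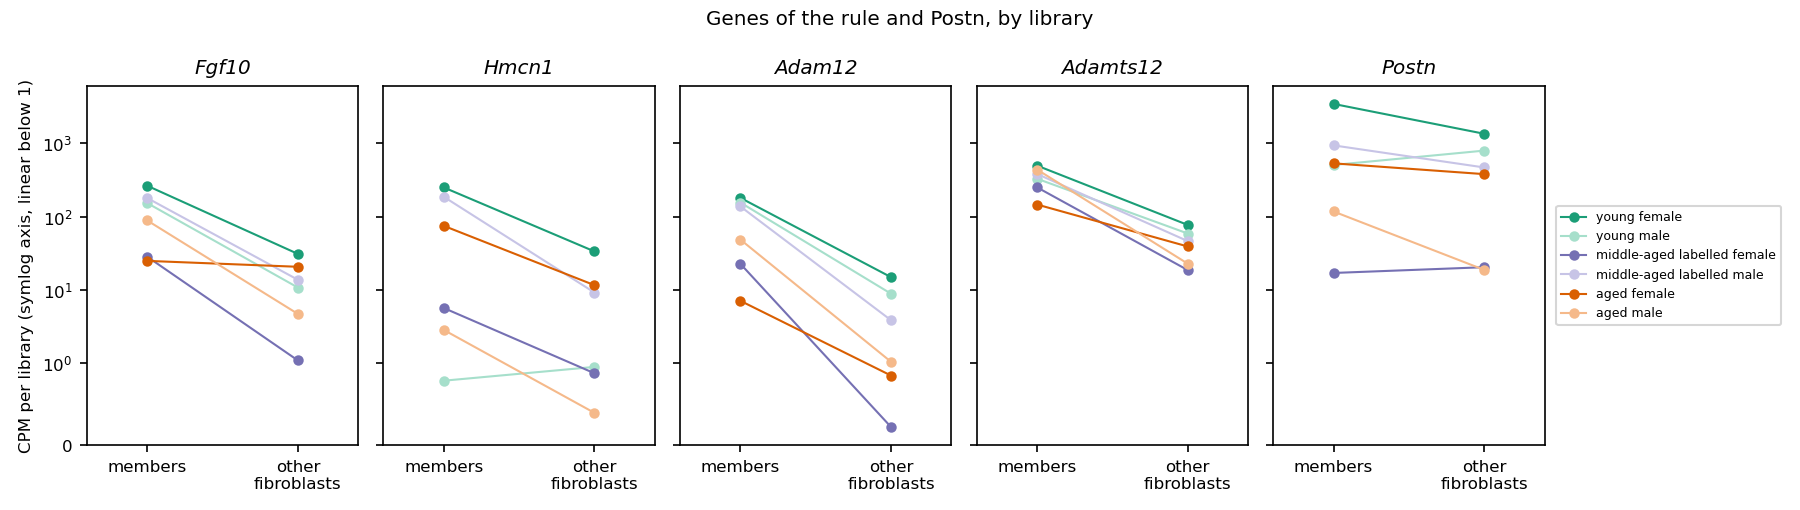
CPM of the 4 genes of the rule and of Postn in members (left of each panel) and other fibroblasts (right), 1 line per library, on a symmetric log axis that is linear below 1. With all members, Adamts12 is between 146 and 495 CPM in every library, whereas Hmcn1 ranges from 0.788 to 249 CPM and Postn from 17.1 to 3421 CPM.

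The members were also unequal among themselves. UMIs of a single gene of the 4 brought in 344 members (34.2%), and for 227 of these that gene was Adamts12. UMIs of 2 of the genes were found in 480 members, of 3 in 153 and of all 4 in 29, 24 of which were in young female. Exactly 2 UMIs, the least the rule allows, were found in 451 members (44.8%), and 1052 fibroblasts with none of Pi16, Cilp or Thbs4 missed the rule by having 1. In young male, members with an Fgf10 UMI (138 cells) had 2174 CPM of Col4a1, a type IV collagen chain, and those without (165 cells) had 2129. Members that entered through Adamts12 alone had 2012 CPM of it in young male (82 cells) and 3032 in aged male (38 cells), against 2196 and 2505 CPM in the remaining members. Other splits were less even. In the library labelled middle-aged male, Col4a1 was at 2014 CPM with an Fgf10 UMI and 1442 without, and at 1045 CPM with an Hmcn1 UMI and 1954 without. In aged female, without epithelial UMIs, it was at 1226 CPM with an Hmcn1 UMI and 2439 without, and in young female at 1199 and 1359 CPM with all members.

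All fibroblasts were clustered on variable genes with the 12 genes of the rule and Postn left out. Of 18 clusters, 3 held 76.3% of the members and 22.3% of all fibroblasts, and 17 held at least 1 member. The fullest cluster had 756 cells, of which 404 (53.4%) were members, and its leading genes included Scg3, Peg3, Hc, Cdh11 and Ptn. It held 353 young female, 42 labelled middle-aged male and 9 aged female members. A second cluster, led by Car3, Fabp4, Cd36, Adipoq and Col15a1, held 215 members, 213 of them from young male, and 99.0% of its cells came from that library. The third, led by Igfbp3, Cyp7b1, Cpe and Cyp2f2, held 110 labelled middle-aged male and 35 young female members. Another cluster, led by Cyp26b1, C7 and Sparcl1, took 63 of 69 aged male and 14 of 17 labelled middle-aged female members. Members were 29.8% of the second cluster, 12.4% of the third and 21.3% of this one. No batch correction was applied, and a cluster drawn mostly from 1 library may be that library and not a type. Members lay mostly in few clusters within each library, and so did fibroblasts as a whole, with 980 of 1644 aged male ones in a single cluster. The cluster that took 63 of 69 aged male members held 289 of those 1644 fibroblasts. The fullest cluster held 564 of 1819 young female fibroblasts, and the second held 715 of 4567 young male ones. The clusters that held the members differed between libraries.

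In every library members had higher levels of the collagens Col4a1, Col4a2, Col15a1 and Col18a1 and of the lipid-handling genes Lpl, Cd36 and Plin2 than other fibroblasts, many of which hold the Pi16, Cilp or Thbs4 transcripts barred from members. Among 4654 genes with at least 30 CPM on 1 side, 13 were at least 2-fold higher in members in all 6 libraries (0.279%) and 46 at least 2-fold lower (0.988%), with 5 CPM added to both sides before the ratio. Col4a1 and Col4a2 encode the chains of the commonest type IV collagen, the sheet-forming collagen of basement membranes. Col4a1 was counted in members at 1287 CPM in young female, 2149 in young male, 1894 in the library labelled middle-aged female, 1664 in the one labelled middle-aged male, 605 in aged female and 2782 in aged male. Other fibroblasts had 409, 789, 170, 397, 193 and 291 CPM in the same order. Without cells holding epithelial UMIs, aged female had 1869 CPM in members and 300.4 in other fibroblasts. Each library's members were above its other fibroblasts, with a mean log2 ratio of 2.24 ± 0.88 (SD, n = 6), and Col4a2 gave 2.30 ± 0.83. Col15a1 and Col18a1 encode collagens that lie where basement membrane meets stroma, and they had mean log2 ratios of 2.37 ± 0.37 and 1.55 ± 0.60.

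Lpl encodes lipoprotein lipase, which frees fatty acids from circulating lipoproteins. It was counted in members at 1893, 1264, 705, 1012, 406 and 1321 CPM in young female, young male, labelled middle-aged female, labelled middle-aged male, aged female and aged male, against 453, 409, 137, 210, 121 and 189 CPM in other fibroblasts. The 2 sides did not overlap except that aged female members (406 CPM) lay below young male and young female other fibroblasts, and without cells holding epithelial UMIs they stood at 1070 CPM. The fatty acid transporter Cd36 and the lipid droplet coat protein Plin2 had mean log2 ratios of 1.90 ± 0.53 and 1.73 ± 0.66. In aged female members Plin2 stood at 620 CPM, and Cd36 had 8 UMIs. Without cells holding epithelial UMIs Plin2 was at 153 CPM there, against 52.7 in other fibroblasts, and Cd36 had 1 UMI in members. Of 15 preadipocyte-like markers at 30 CPM, 6 were 2-fold higher in every library (Lpl, Cd36, Col15a1, Col4a1, Bmper and Plin2) and none lower, and the median log2 ratio of the list was 1.09, against 0.01 over all genes compared. Fabp4, the fatty acid binding protein of adipocytes, averaged 750 CPM in members and 102 in other fibroblasts but was not 2-fold higher in all 6. For basement membrane genes the count was 4 of 20 higher and the median 0.45. The other genes past 2-fold were Sparcl1, a SPARC-like matricellular protein, at 2.59 ± 0.78, and Enpp2, the secreted enzyme that makes lysophosphatidic acid, at 2.45 ± 0.55. Bmper, a BMP-binding protein, stood at 2.07 ± 0.70, the matrix metalloproteinase Mmp3 at 1.92 ± 0.57, the hypoxia-inducible factor Epas1 at 1.90 ± 0.51 and the cytochrome Cyp1b1 at 1.63 ± 0.51.

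Among the genes lower in members, Dmkn and Sbsn, secreted proteins best known from keratinocytes, had mean log2 ratios of -3.93 ± 2.18 and -3.59 ± 1.96. Akr1c18, which inactivates progesterone, was at -3.82 ± 1.10, the alarmin Il33 at -3.16 ± 1.27 and Aldh1a3, which makes retinoic acid, at -3.12 ± 0.57. Myoc, which encodes myocilin, averaged 46.9 CPM in members and 412 in other fibroblasts. Col14a1, a collagen that binds to fibril surfaces, averaged 108 CPM in members and 637 in other fibroblasts, a mean log2 ratio of -2.59 ± 0.70. Sema3e, Itgb7 and Bmp7 completed the 10 with the largest mean difference, at -2.78 ± 1.52, -3.13 ± 1.27 and -2.58 ± 0.58. Of 17 adventitial markers at 30 CPM, 6 were 2-fold lower in every library (Dpp4, Sema3c, Cd55, Anxa3, Bmp7 and Smpd3) and none higher, with a median of -1.53. The rule bars Pi16, itself an adventitial marker, from members, so this difference is partly set by the choice of cells.

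Other lists held few such genes. Axon guidance genes had 3 of 11 lower (Sema3b, Sema3c and Sema3e), chemokines and cytokines 2 of 22 (Il33 and Ptgs2), Wnt genes 1 of 12 (Wnt10b), complement genes 1 of 10 (Cd55) and collagens 1 of 24 (Col14a1). TGF-beta and BMP genes had 1 of 23 higher (Bmper) and 1 lower (Bmp7), matricellular genes 1 of 15 higher (Sparcl1), metalloproteinases and TIMPs 1 of 8 higher (Mmp3) and dermal papilla markers 1 of 3 higher (Enpp2). None was 2-fold apart in every library among 12 elastic fibre, 8 leucine-rich proteoglycan, 21 adhesion receptor, 10 myofibroblast, 17 PDGF, IGF and VEGF, 16 interferon and MHC class I, 31 dissociation, 7 CDK inhibitor and p53 target, 10 growth-phase and imprinted, 2 cell cycle and 28 fibroblast transcription factor genes. The same held for tendon (2 genes), nerve sheath (3), smooth muscle (4), Schwann (2) and erythrocyte (1) markers, and no skeletal muscle marker reached 30 CPM. Among FGF genes other than Fgf10, 1 of 9 was lower (Fgf2, 32.7 CPM in members and 120 CPM in other fibroblasts on average), and the median was -0.45. The feedback inhibitor Spry4 averaged 26.97 CPM in members and 9.66 in other fibroblasts. Of 14 ADAM and ADAMTS genes outside the rule, none was 2-fold apart in every library. The interstitial collagen Col3a1 averaged 10588 CPM in members and 5967 in other fibroblasts, with a spread over libraries (mean log2 ratio 1.31 ± 1.08) nearly as large as the difference.

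Markers of other cell types were counted in members at levels that differed by library. Endothelial markers summed to between 0 and 22.9 CPM in members and between 10.3 and 85.4 CPM in other fibroblasts, with Flt4 and Tie1 at 0 in members, and 0 of 10 listed reached 30 CPM. Leukocyte markers summed to 42.7 to 372 CPM in members and 51.2 to 442 in other fibroblasts, and 2 of 11 reached 30 CPM. Smooth muscle and pericyte markers summed to 119 to 691 CPM in members, highest in aged female, and to 102 to 773 CPM in other fibroblasts. Schwann cell markers summed to 189 to 411 and 254 to 530 CPM, and erythrocyte genes to 4.73 to 511 and 15.4 to 248 CPM, highest in members of the library labelled middle-aged male. Epithelial markers summed to at most 19.1 CPM in members of 4 libraries, and to 643 CPM in the library labelled middle-aged male and 6730 in aged female, where 14.3% of members had an Epcam UMI. Other fibroblasts had 565 and 2928 CPM in those 2 libraries. When every cell with a UMI of Epcam, Krt8, Krt18 or Krt19 was left out on both sides, 27 genes were 2-fold higher and 39 lower in all 6 libraries. Leaving out aged female alone gave 23 higher and 53 lower.

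**Figure D3:**
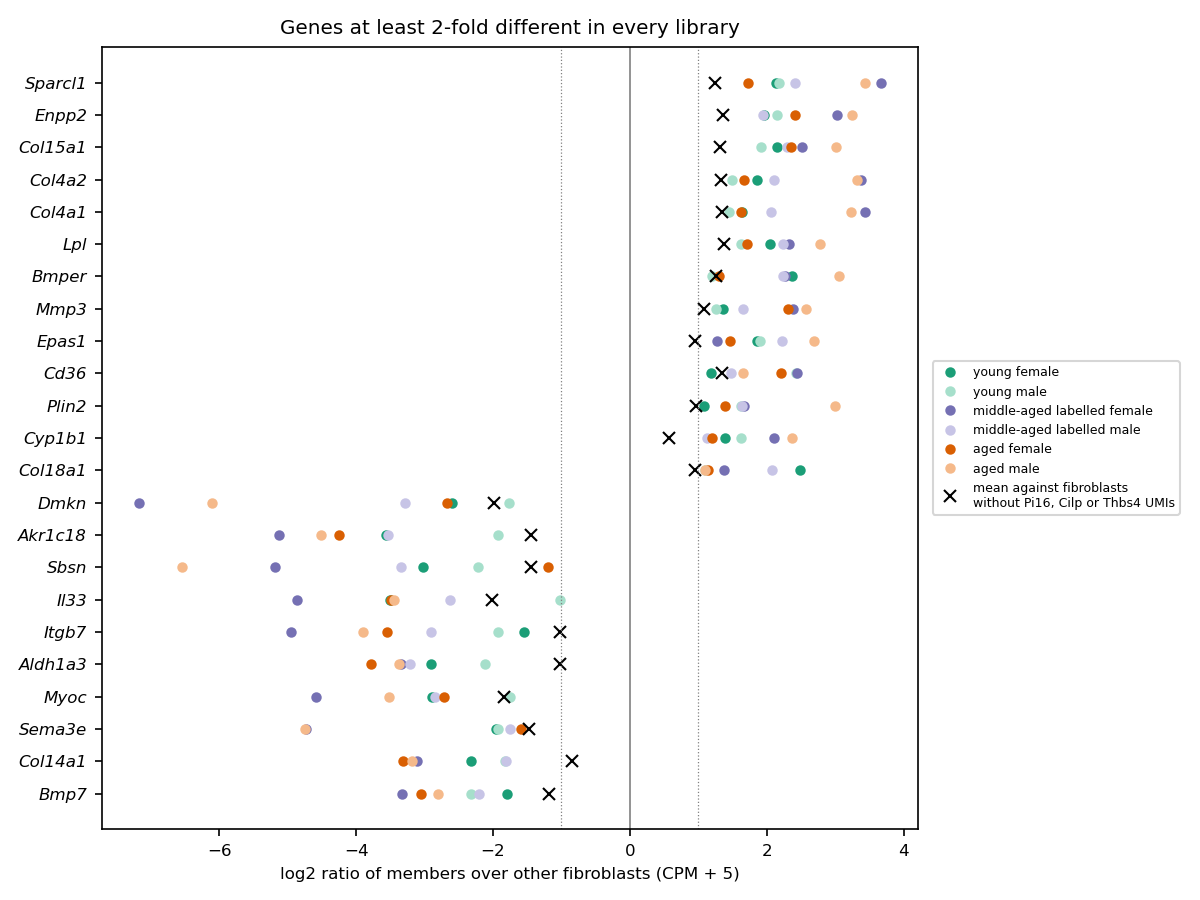
Log2 ratio of members over other fibroblasts (5 CPM added to both) for the 13 genes higher and the 10 named genes lower in all 6 libraries, 1 point per library, with dotted lines at 2-fold. Crosses give the mean ratio against fibroblasts that also lack Pi16, Cilp and Thbs4 UMIs, and they lie nearer 0 than most points, at 1.35 for Col4a1 against 2.24.

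The comparison cells may hold Pi16, Cilp or Thbs4, which the members may not. Against other fibroblasts that also lacked these 3 transcripts, none of 4562 genes was 2-fold higher in all 6 libraries (0.0%) and none lower (0.0%). The mean log2 ratio of Col4a1 was then 1.35, of Lpl 1.38, of Col15a1 1.31, of Sparcl1 1.23 and of Enpp2 1.35. For the genes lower in members it was -0.85 for Col14a1 and -2.01 for Il33. These ratios kept their direction and were smaller.

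Among fibroblasts without Pi16, Cilp and Thbs4 UMIs, levels could be followed by the summed UMIs of the 4 genes, from 2743 cells with none to 340 with 4 or more. In young male, Col4a1 was counted at 903 CPM in cells with 0 such UMIs, 1434 with 1, 2012 with 2, 2480 with 3 and 2188 with 4 or more. Aged male gave 753, 2110, 2150, 3552 and 3265 CPM, and young female 673, 1049, 1134, 1212 and 1370. Cells with 1 UMI, just outside the rule, lay between those with 0 and those with 2 in each of these libraries. Aged female gave 114, 181, 437, 103 and 1852 CPM. Without cells holding epithelial UMIs it gave 339.8, 1678, 2556, 367 and 1934 CPM, from 22, 10, 7, 3 and 8 cells, with no steady order. Lpl in young female stood at 583, 1257, 1573, 1232 and 2203 CPM, with a drop at a sum of 3. In the library labelled middle-aged female Lpl stood at 464, 435, 326, 884 and 906 CPM, from 68, 27, 7, 6 and 4 cells. Postn was higher at larger sums in young female (1367, 2528, 2895, 2584 and 3863 CPM) but not in young male (732, 563, 491, 616 and 421 CPM). Deeper cells collect more UMIs of every gene, and median depth went with the sum, from 2566 to 4357 UMIs in young male. The part of depth in these levels was not tested.

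**Figure D4:**
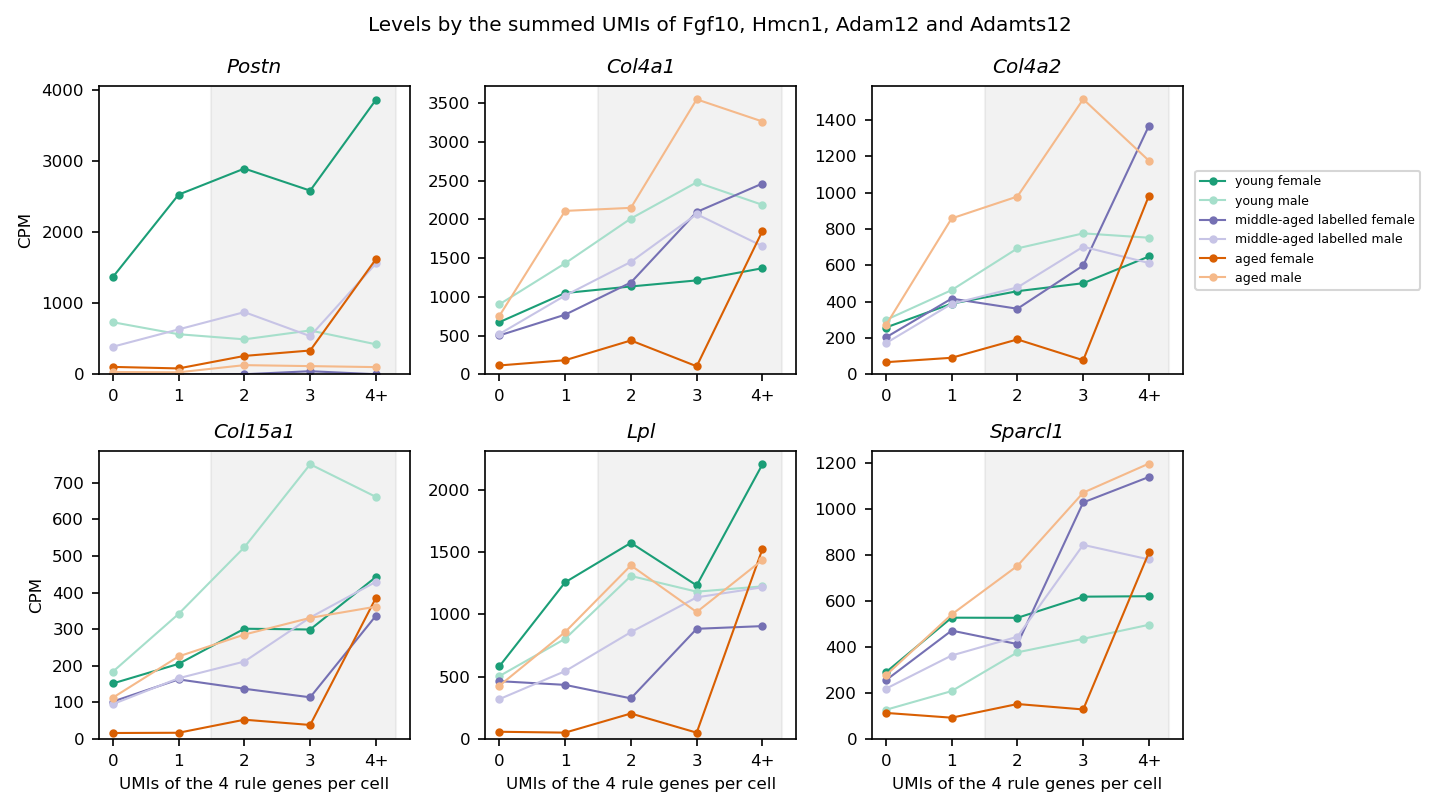
CPM of 6 genes in fibroblasts without Pi16, Cilp or Thbs4 UMIs, grouped by their summed UMIs of Fgf10, Hmcn1, Adam12 and Adamts12, 1 line per library, with the range that meets the rule shaded. Col4a1 in young male goes from 903 CPM at 0 UMIs to 2188 CPM at 4 or more, while aged female, drawn with all its cells, stays at or below 437 CPM until the last group.

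Type IV collagen genes sit in head-to-head pairs, each pair sharing 1 stretch of promoter. Col4a1 (ENSMUSG00000031502, chromosome 8, 11198423 to 11312826, minus strand, GRCm38) and Col4a2 (ENSMUSG00000031503, chromosome 8, 11312805 to 11449287, plus strand) start 21 bases apart, and Col4a4 (ENSMUSG00000067158, chromosome 1, 82448423 to 82586849, minus strand) and Col4a3 (ENSMUSG00000079465, chromosome 1, 82586921 to 82722059, plus strand) start 72 bases apart. The sequences are shown because both genes of each pair followed the same pattern here: Col4a1 and Col4a2 were high in members of all 6 libraries, and Col4a3 and Col4a4 differed by labelled sex. Each line is the RefSeq window (GRCm38.p6) from 250 bases before to 50 bases after the start of the minus-strand gene, 5′ to 3′ on the minus strand, at chr8:11312777-11313076 for Col4a1 and chr1:82586800-82587099 for Col4a4. Capitals mark a CCAAT box (CCAAT or its reverse complement ATTGG), a GC box (GGGCGG or CCGCCC) or a TATA box (TATAAA or TTTATA).
Col4a1: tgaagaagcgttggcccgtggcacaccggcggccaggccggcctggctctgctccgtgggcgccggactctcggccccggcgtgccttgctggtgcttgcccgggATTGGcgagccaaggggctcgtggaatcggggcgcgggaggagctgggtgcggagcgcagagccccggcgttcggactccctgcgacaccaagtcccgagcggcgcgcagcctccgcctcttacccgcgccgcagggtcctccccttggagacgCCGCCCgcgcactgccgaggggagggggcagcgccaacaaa
Col4a4: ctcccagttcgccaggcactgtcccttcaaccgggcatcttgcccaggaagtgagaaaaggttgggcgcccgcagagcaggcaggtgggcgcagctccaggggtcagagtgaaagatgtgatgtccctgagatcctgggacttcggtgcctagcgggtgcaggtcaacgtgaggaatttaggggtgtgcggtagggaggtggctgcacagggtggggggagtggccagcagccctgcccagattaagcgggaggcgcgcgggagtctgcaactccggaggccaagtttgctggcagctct
The Col4a1 window held 1 CCAAT box and 1 GC box and no TATA box, and none of the 3 was found in the Col4a4 window. Of 32851 mouse promoter windows of this length, 37.4% held a CCAAT box, 35.7% a GC box and 13.6% a TATA box. G and C made up 74.0% of the Col4a1 window and 63.3% of the Col4a4 window, against a median of 52.7%. A match of letters describes the window and does not show a bound site.

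Age was not used by the rule and could be tested over libraries, but the cells that met the rule lay in different clusters by library. The cluster led by Car3 held 213 of 303 young male members, and that led by Cyp26b1 and C7 held 63 of 69 aged male ones. The cluster led by Scg3 and Peg3 held 353 of 417 young female and 9 of 21 aged female members. The part of this in the age comparisons was not tested. UMIs of the members were summed per library and compared with edgeR's quasi-likelihood test, in which 5 sums of 280827 to 1572839 UMIs entered. The library labelled middle-aged female, with 17 members, fell under the minimum of 20, so the middle-aged side was 1 sum and was assumed to vary like the other ages. Young and aged each had 1 sum labelled female and 1 labelled male, so the spread within an age was also that between labelled sexes. For none of 7932 genes did the adjusted p fall under 0.05 in aged against young, middle-aged against young or aged against middle-aged (0% in each direction). Among the 7932 genes, an unadjusted p under 0.05 was found for 212 higher and 174 lower genes in aged against young. There were 76 and 54 in middle-aged against young, and 61 and 87 in aged against middle-aged. A share of 0.05 of genes passes this threshold where nothing differs, so these counts by themselves show no change with age. DESeq2 called 9, 1 and 1 genes. The 3 genes of smallest p in aged against young did not pass the threshold (adjusted p = 0.766 for each). They were Tuba4a, an alpha-tubulin, with 103 and 60.0 CPM in aged and 12.1 and 5.52 CPM in young members (female and male), Meg3, an imprinted long noncoding RNA, with 99.7 and 34.3 against 727 and 551 CPM, and the carboxypeptidase Cpz, with 0 UMIs in both aged sums against 29.9 and 67.0 CPM. None of the 3 overlapped between the ages. In aged female members without epithelial UMIs, Tuba4a had 0 UMIs and Meg3 282 CPM. Without young male the same test called 111 genes and without aged male 114, so the count of 0 rests on which libraries are compared.

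With labelled sex in the model, which leaves 1 residual degree of freedom, edgeR called 88 genes higher (1.11%) and 25 lower (0.315%) in aged against young members. Exchanging the labels of the middle-aged pair gave the same 113, since only 1 middle-aged sum entered. Among the genes that rose, 13 of 88 had both aged sums above both young ones. The share over all genes tested was not counted, so this number has nothing to be set against. All 6 tested epithelial markers were among the 88, including Epcam, at 969 CPM in aged female, 0 in aged male, 1.27 in young female and 0 in young male members. Spp1, Cldn3 and Sfn were likewise above 150 CPM in aged female members only. With cells holding Epcam, Krt8, Krt18 or Krt19 UMIs left out, 4 genes were called higher and 15 lower, 2 and 11 of them among the calls made with all members, from a smallest sum of 18 members.

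Of the 25 genes that fell with labelled sex in the model, 22 had both aged sums below both young ones. These genes were called on the same sums, and again no count over all genes tested was made. The number therefore gives no support of its own. Meg3 fell by 3.43 on the log2 scale (SE 0.74, adjusted p = 0.000401) and by 2.71 without epithelial UMIs (adjusted p = 3.6e-05). Itm2a, a membrane protein of chondrogenic and muscle progenitors, had 78.3 CPM in aged female and 17.2 in aged male members, against 678 in young female and 184 in young male (adjusted p = 0.000749). In aged female members without epithelial UMIs it stood at 235 CPM, above young male, and the fit without such cells gave a log2 change of -2.45. In other fibroblasts labelled sex was fitted on the young and aged sums alone, without a middle-aged sum, so its counts are not on like terms. That fit called 15 of 11629 genes higher (0.129%) and 10 lower (0.086%). Itm2a fell there as well (log2 -3.23, SE 0.39, adjusted p = 0.0179). Of the genes that fell in members, 24 were tested there and 2 were called lower. Of those that rose, 47 were tested and 7 were called higher. The median log2 change of the fallen genes was -2.95 in members and -1.60 in other fibroblasts. Cpz, with 0 UMIs in both aged sums, was at least 2.80-fold lower in aged than young female and at least 7.81-fold lower in aged than young male members, taking 3 UMIs per library as the floor. The chemokine Cxcl9 had 0 and 28.6 CPM in aged female and male members, against 97.9 and 101 in young ones (adjusted p = 0.0018). Among leukocyte markers, C1qb, Lyz2 and Cd74 fell, 3 of 7 tested, and the summed leukocyte markers stood at 42.7 and 54.3 CPM in aged female and male members, against 206 and 372 CPM in young ones. The part of leukocyte RNA in these differences was not tested. In the growth-phase and imprinted list 3 of 12 fell (Ptn, H19 and Meg3), and none of the basement membrane list passed the test in either direction.

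Whether the aged against young change in members differed from that in other fibroblasts was tested as an interaction over 10 sums with library as a block. Here too the members of different libraries lay in different clusters, and the part of this was not tested. Of 12169 genes, 14 were called higher (0.115%) and 3 lower (0.0247%) by edgeR, and DESeq2 called none. Fmo2, a flavin monooxygenase, had 114 and 88.6 CPM in aged female and male members against 62.9 and 26.0 in young ones, whereas other fibroblasts had 38.0 and 22.2 CPM in aged and 51.1 and 75.8 in young (difference of log2 changes 2.27, SE 0.42, adjusted p = 0.00645). Plscr2, Ptn and Retnla were called too, and among the rest were the matrix genes Lox, Smoc2, Tgfbi, Hmcn2 and Itgbl1 and the keratins Krt8, Krt18 and Krt19, all called higher. The number called depended on single libraries, at 8 without young male, 4 without young female, 3 without the labelled middle-aged male library, 181 without aged male and 124 without aged female.

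Members were also compared between libraries labelled female and male. This comparison was added after the values per library had been seen, and it used the 4 young and aged sums with age in the model, since the middle-aged labels went against Xist. It leaves 1 residual degree of freedom. The rule took different cells by labelled sex. An Hmcn1 UMI was held by 44.6% of young and 47.6% of aged female members, against 0.330% and 1.45% of male ones. The cluster led by Scg3, Peg3, Hc and Cdh11 held 353 young and 9 aged female members and 0 young or aged male ones. Of male members, 213 young ones lay in the cluster led by Car3 and 63 aged ones in that led by Cyp26b1 and C7. The part of this choice of cells in the differences below was not tested. Of 7361 genes, edgeR called 18 higher (0.245%) and 27 lower (0.367%) in labelled female members, or 16 and 24 without Xist, Tsix and Y-linked genes. DESeq2 called 14 in all. Sult1e1, the estrogen sulfotransferase, had 0 UMIs in young and aged female members, against 426 CPM in young male and 686 in aged male. With a floor of 3 UMIs per library it was at least 223-fold lower in young female and at least 64.2-fold lower in aged female members. The complement component C7 had 0.636 and 10.7 CPM in young and aged female members, against 104 and 392 in male ones, and fell by 6.02 on the log2 scale (SE 0.80, adjusted p = 1.06e-10). Serpine2, a protease inhibitor, had 22.9 and 7.12 CPM against 151 and 429 (adjusted p = 8.35e-06). In aged female members without epithelial UMIs C7 stood at 35.3 CPM and Serpine2 had 0 UMIs.

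Both genes of the second type IV collagen pair were lower in labelled female members. Col4a4 had 10.2 and 14.2 CPM in young and aged female members, against 99.3 and 206 CPM in male ones (log2 -3.57, SE 0.66, adjusted p = 2.67e-05). Col4a3 had 3.18 and 3.56 CPM, against 29.95 and 45.8 (log2 -3.41, SE 0.81, adjusted p = 0.00624). The aged female values rest on 4 UMIs of Col4a4 and 1 of Col4a3, the latter under the floor of 3 UMIs. Without epithelial UMIs they were 47.0 and 11.8 CPM. With Col4a4, Col4a3 and Smoc2, 3 of 23 basement membrane genes fell and none rose, while 0 of 27 collagen-list and 0 of 13 complement-list genes passed. The basement membrane list had a median of -1.08, against 0.01 over all genes tested. Col4a1 and Col4a2, the pair that was high in members everywhere, did not pass the test (log2 -1.51, SE 0.73, adjusted p = 0.848 for Col4a1, and log2 -1.15, SE 0.68, adjusted p = 1.00 for Col4a2). The carbonic anhydrase Car3, abundant in fat, had 26.1 and 3.56 CPM in young and aged female members, against 751 and 51.5 in male ones. Agt, the angiotensin precursor, had 6.99 and 10.7 CPM, against 227 and 37.2. In aged female members without epithelial UMIs Car3 stood at 11.8 CPM and Agt had 0 UMIs.

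Among the genes higher in labelled female members, Cdh11, a cadherin of mesenchymal cells, had 301 and 53.4 CPM in young and aged female, against 7.09 and 2.86 in male members (log2 5.01, SE 0.80, adjusted p = 3.35e-07). Scg3, a secretogranin of secretory granules, had 681 and 135 CPM, against 14.98 and 28.6 (log2 4.00, SE 0.75, adjusted p = 3.94e-05). The imprinted transcription factor Peg3 had 348 and 60.5 CPM, against 9.46 and 17.2 (log2 3.80, SE 0.73, adjusted p = 8.0e-05). Hc, the complement component C5, had 99.2 and 14.2 CPM in female members, against 0.788 CPM in young male (1 UMI) and 0 in aged male. In aged female members without epithelial UMIs, Cdh11 stood at 176 CPM, Scg3 at 282, Peg3 at 106 and Hc at 47.0. Prlr, the prolactin receptor, was highest in aged female, at 513 CPM, and was too low to be tested once cells with epithelial UMIs were left out, as was Cited1. Cdh11, Scg3, Peg3, Hc, Ifitm1, Fibin and Heph still passed then, and Fnbp1l did not (adjusted p = 0.298).

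The middle-aged pair had no part in this fit. Of the 16 genes higher in labelled female members, 14 were higher in the library labelled middle-aged male than in the one labelled middle-aged female and 1 was lower. Of the 24 lower genes, 21 were lower there. Over all 7361 genes tested, 3995 were higher and 3357 lower in the library labelled middle-aged male. Sult1e1, for example, had 813 CPM in members of the library labelled middle-aged female and 0 in the one labelled middle-aged male. For most of these genes, as for Xist, the pair ran opposite to its labels. In other fibroblasts the same contrast called 58 genes higher (0.499%) and 44 lower (0.378%) of 11629, and 6 of the 16 and 9 of the 24 were called in the same direction there.

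**Figure D5:**
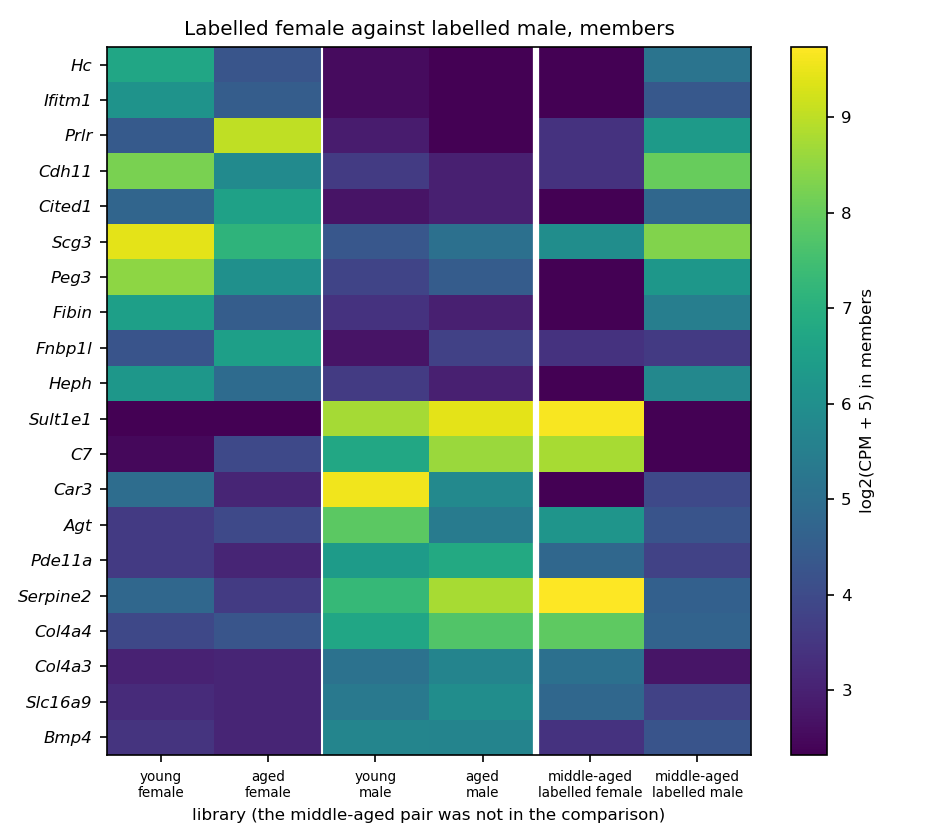
Level in members, as log2(CPM + 5), of the 10 named genes higher and 10 lower in labelled female than labelled male members, by library. The middle-aged pair on the right was not in the comparison, and there Sult1e1 is at 813 CPM in the library labelled female and at 0 in the one labelled male.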

How the data were processed

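Per the file headers and the submitters' processing notes, the authors deposited unfiltered UMI counts per gene and barcode, made with Cell Ranger 3.0.2 against mm10. The notes also name Seurat, and the filters used with it are not given in the sources used here. The labels name a v2 kit, while 6794880 barcodes are listed per library.

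A barcode was kept if it showed 500 or more genes with a UMI and no more than 10% of its UMIs were mitochondrial. Doublets marked by Scrublet (6% expected) were 577 of 24488 barcodes (2.36%), among them 15 members, and were kept in the main values. Gene IDs sharing a symbol (71) were summed, and 30934 of 31053 IDs were found in GENCODE M21. Counts were summed over members and over other fibroblasts of each library, which is the replicate. Sums over 20 or more members were tested with edgeR 4.0.16 under R 4.3.3 (TMM, filterByExpr, quasi-likelihood F test, Benjamini-Hochberg adjusted p under 0.05), with DESeq2 1.42.0 as an alternative. The fits were also run on simulated counts that had the same spread for every gene. Such counts hold no library dominated by single cells, so they do not show how often the calls here are wrong. Fibroblasts were clustered with scanpy 1.11.5 (2000 variable genes, 30 components, 15 neighbours, Leiden resolution 1). Intervals are exact binomial ones at 95% and floors are 3 counts; both cover counting error only. P-values measure the spread between libraries, which may be technical. Each age has 1 library of each labelled sex, so without labelled sex in the model that spread includes any difference between the sexes. Fits with labelled sex have 1 residual degree of freedom, and their p-values lean on a spread shared across genes.

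The members, the 34 gene lists and the tests were chosen with earlier results of these data known. Members against other fibroblasts has no test, because the rule chose the members on the same counts. Named genes were the rule genes and Postn, up to 15 genes higher and 10 lower by mean log2 ratio among those 2-fold apart in every library, up to 10 called genes per direction of each test whose libraries did not overlap (with fewer than 3 calls, the 3 of smallest p), and up to 4 members of each list. Hemoglobin, immunoglobulin, mitochondrial, sex-linked and predicted genes were not taken by fold. Other genes named beside a small count were chosen after their values were seen. Alternatives covered doublets, depth, the rule's minimum, the filters, normalization, single libraries, labelled sex and cluster resolution.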

Additional observations from a re-analysis of the deposited data

Results flagged for a closer look

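For 4 named genes the aged against young change differed between members and other fibroblasts by edgeR's test of that difference, adjusted over 12169 genes. The difference of the log2 changes, members minus other fibroblasts, was 4.50 for Plscr2 (SE 0.86, adjusted p = 0.00853), 2.27 for Fmo2 (SE 0.42, adjusted p = 0.00645), -3.80 for Ptn (SE 0.68, adjusted p = 0.00432) and -2.73 for Retnla (SE 0.50, adjusted p = 0.00645). Plscr2, a phospholipid scramblase gene, had 96.1 and 8.58 CPM in aged female and male members and 1.27 and 0 CPM in young ones, while aged and young other fibroblasts had 36.0 and 2.10 CPM and 7.08 and 4.31 CPM in the same order of sexes. Ptn, the growth factor pleiotrophin, had 10.7 and 0 CPM in aged and 313 and 12.6 CPM in young members, against 46.0 and 0.263 CPM in aged and 90.7 and 4.99 CPM in young other fibroblasts. Retnla, a resistin-like secreted protein, had 0 and 42.9 CPM in aged and 139 and 132 CPM in young members, against 13.9 and 137 CPM in aged and 117 and 49.2 CPM in young other fibroblasts. In aged female members without epithelial UMIs Plscr2 had 0 UMIs. With such cells left out, the difference no longer passed for Plscr2 (log2 3.503) or Ptn (-1.62) and still passed for Fmo2 (2.12) and Retnla (-2.75). Of 15 alternatives, 8 ended the call for Plscr2, 6 for Ptn, 6 for Fmo2 and 4 for Retnla, whose difference was -0.54 without barcodes marked as doublets. DESeq2 called none of the 12169 genes. No group holds enough libraries for a test of single outlying libraries.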

How the results depend on the processing

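No paired analysis was possible because the labels give no replicate numbers that libraries of different ages share. Library is a block only where members are set against other fibroblasts of the same library. No age has more than 2 libraries, so the spread within an age is known from few.

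The share of members in young female, young male, labelled middle-aged male, aged female and aged male moved to 16.4%, 2.52%, 2.70%, 2.96% and 2.07% with at least 3 UMIs. After thinning it moved to 18.0% in young female, 3.54% in young male, 3.60% in labelled middle-aged male, 1.52% in aged male and 0.887% in the library labelled middle-aged female, and with at least 1000 detected genes to 8.03% in young male. The 3 fullest clusters held 87.9% of members at Leiden resolution 0.5 and 62.5% at 2.

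Genes 2-fold higher in members in every library numbered 8 after thinning, 4 at 3-fold, 0 against fibroblasts without Pi16, Cilp or Thbs4, 27 without epithelial UMIs and 33 without libraries of under 30 members, against 13, and with 1 library left out 13 to 23. Genes lower numbered 11 at 3-fold and 0 against fibroblasts without those 3 genes, against 46, and 47 to 55 with 1 library left out.

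Aged against young, with 0 calls, gave 3 with at least 3 UMIs, 2 after thinning, 9 by DESeq2, 255 with no filter on low counts, 113 with labelled sex (also with the middle-aged labels exchanged), 19 with labelled sex and no epithelial UMI, and 0 to 114 with 1 library left out. Middle-aged against young gave 16 with at least 3 UMIs, 1 after thinning, 1 with no epithelial UMI, 1 by DESeq2, 67 with no filter, 96 with labelled sex, 28 with those labels exchanged, and 0 to 23 with 1 library left out. Aged against middle-aged gave 1 by DESeq2, 69 with no filter, 32 with labelled sex, 56 with the labels exchanged, and 0 to 35 with 1 library left out. Differences between members and other fibroblasts, 17 in all, numbered 90 with at least 3 UMIs, 122 after thinning, 49 with no epithelial UMI, 34 with DESeq2 size factors, 0 by DESeq2, 42 with no filter, and 3 to 181 with 1 library left out. Labelled female against labelled male, 45 in all, numbered 15 at most 5% mitochondrial UMIs, 123 with no epithelial UMI, 14 by DESeq2, 140 with no filter, 128 with all sums under either labelling, and 82 with all 6 libraries and the middle-aged labels exchanged. The cause of these changes was not tested. With 1 library left out, the labelled sex fit has no residual degrees of freedom and was not run. None of the 33 tested genes and contrasts recomputed under the alternatives reversed its direction. The other genes named have no such values.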
